A study of Mus musculus with 26 samples.

Results

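The 45 genes described here encode the extracellular matrix of neural stem and progenitor cells and the receptors that bind it. They were taken as a named list of laminins, collagens, glycoproteins, chondroitin sulfate proteoglycans, integrins and matrix-remodelling enzymes by role, with no threshold on a measured value, although earlier results of these data were known. Of the 45, 44 were measured among 19505 genes, and Itga1 was not analysed here. Their mean level reached 4.96 log2 units, the lower quartile of all genes, in 41 of the 44, and the genes below it were kept.

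The cells were cultured neural stem and progenitor cells (NSPCs) from the telencephalon of C57BL/6 mice at postnatal day 0, kept in medium with EGF and FGF-1. After passage 3 they received 100 nM dexamethasone (Dex, a synthetic glucocorticoid) or its ethanol vehicle for 4 h, and total RNA was hybridised to 1-colour arrays. The 4 groups were SOX2 KO with vehicle (n = 7), wild type (WT) with vehicle (n = 6), SOX2 KO with Dex (n = 7) and WT with Dex (n = 6). Cultures 7 to 13 were SOX2 KO and cultures 1 to 6 were WT, each culture came from 1 animal, and each gave 1 Dex and 1 vehicle array. How SOX2 was removed is not given in the sources used here, both sexes were used, and the sex of each culture is not given.

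The extracellular matrix is a mesh of secreted proteins and proteoglycans outside the cell. Laminins, type IV collagens, nidogen and perlecan form basement membranes, which integrins and dystroglycan on the cell surface bind. Around neural progenitors the matrix is rich in tenascin-C and in chondroitin sulfate proteoglycans of the lectican family, and metalloproteinases with their TIMP inhibitors remodel it.

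The targeted gene followed the genotype labels, since Sox2 averaged 4.65 ± 0.51 log2 units in SOX2 KO vehicle arrays and 13.40 ± 0.70 in WT vehicle arrays (SD). The Dex labels were not followed by culture 4, a WT culture. Fkbp5, a glucocorticoid-induced co-chaperone gene, was higher with Dex by 1.79 to 2.83 log2 units in the 7 SOX2 KO cultures and by 1.27 to 1.87 in the other 5 WT cultures, and differed by -2.03 in culture 4. Results that culture 4 moved are therefore also given without it. The cultures were also clustered on their profiles over all genes, after each group's mean was removed. The clustering was cut at a set number of 3 array clusters, which have no counterpart in the labels. They held cultures 1, 2, 3, 7 and 8, cultures 4, 10 and 12, and cultures 5, 6, 9, 11 and 13. Each had both genotypes, but genotype and treatment means had been taken out first, so that mix is not a result. The list of 10 measured progenitor markers had 7 above the array median on all 26 arrays, Nes, Pax6 and Vim among them. Of 8 endothelial and 9 mural markers, 5 and 6 lay below the array median on all arrays, and the mural marker Acta2 lay above it on all arrays, at 7.57 to 12.51 log2 units. No gene of the endothelial, mural, fibroblast or microglia list was called in any comparison. Of the progenitor markers, Sox2 itself was the one called, and the other 9 differed by -0.12 to 1.03 log2 units between SOX2 KO and WT in vehicle. Of 6 astrocyte and 7 neuron markers, 2 (Aldoc and Slc1a2) and 1 (Syt1) were lower in SOX2 KO in vehicle, and the part of such shifts in the differences below was not tested. The mean of the 10 fibroblast markers was 4.88 to 5.62 log2 units in SOX2 KO vehicle arrays and 5.01 to 5.51 in WT vehicle arrays. In such bulk samples, fewer cells of a type and less RNA per cell cannot be told apart.

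In vehicle, Itgb5 and Lama1 were lower in SOX2 KO than in WT cells, by 4.06-fold and 3.06-fold. These were 2 of the 44 genes to pass an adjusted p of 0.05 (limma, Benjamini-Hochberg over all genes), and no gene of the list passed as higher. Over all 19505 genes 0.559% passed, 0.369% as lower and 0.19% as higher. The median difference of the 44 genes was 0.02 log2 units, against -0.03 for all genes, with 24 of them above 0 (44.8% of all genes were above 0). Without culture 4, 21 of the 44 were above 0 (42.3% of all genes).

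Itgb5 encodes the integrin beta 5 subunit, which pairs with integrin alpha v to bind vitronectin. Its level in vehicle was 6.76, 8.22 and 8.94 log2 units in SOX2 KO arrays (lowest, median and highest of 7) and 9.47, 10.15 and 10.36 in WT arrays (of 6). Every SOX2 KO array lay below every WT array, and the lowest was that of culture 12. The difference was -2.02 ± 0.31 log2 units (SE, 95% interval -2.66 to -1.38, adjusted p = 0.000538). Within the 3 array clusters it was -1.41, -2.81 and -1.72, and without culture 4 it was -2.07 ± 0.32. The middle of these values, here and for the genes below, has culture 4 as its only WT culture. Itgav, the partner of Itgb5, did not pass the test, with a difference of -0.21 log2 units.

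Lama1 encodes the laminin alpha 1 chain, an early basement membrane component. The SOX2 KO vehicle arrays had a lowest, median and highest level of 5.90, 6.54 and 7.47 log2 units, against 7.59, 8.21 and 9.26 in WT vehicle arrays. The groups did not overlap, but the highest SOX2 KO array and the lowest WT array were 0.12 log2 units apart. Lama1 differed by -1.61 ± 0.30 log2 units (SE, adjusted p = 0.004). The difference was -1.53, -1.21 and -1.47 within the 3 clusters, and -1.72 ± 0.31 without culture 4. Groups without overlap and with SOX2 KO lower occurred in these 2 genes of the list and in 0.359% of all genes.

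With Dex the same comparison of genotypes gave the same 2 genes as lower, and Vcan as higher. Over all genes 0.564% passed in this comparison, 0.379% as lower and 0.185% as higher. The median of the 44 genes was -0.10 log2 units, against -0.06 for all genes, with 15 of 44 above 0 (41.3% of all genes), and 14 without culture 4 (39.3% of all genes). Among all genes at or above the lower quartile of level, the median was also -0.10. Both treatments were given to the same cultures, so the 2 comparisons are not independent.

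Itgb5 in Dex arrays was 7.48, 8.44 and 9.04 log2 units in SOX2 KO (lowest, median, highest) and 9.32, 10.46 and 10.86 in WT. The groups again did not overlap, and the difference was -1.77 ± 0.31 (SE, adjusted p = 0.00275), or -1.96 ± 0.32 without culture 4. It was -1.73, -1.38 and -1.51 within the 3 clusters. Lama1 was 5.64, 6.54 and 6.88 in SOX2 KO Dex arrays and 6.93, 8.10 and 8.72 in WT Dex arrays. Its groups were 0.05 log2 units apart at their nearest arrays, and the difference was -1.70 ± 0.30 (adjusted p = 0.00255). Within the clusters it was -1.56, -1.32 and -1.64, and without culture 4 it was -1.80 ± 0.31. In Dex, groups without overlap and with SOX2 KO lower occurred in 0.292% of all genes.

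**Figure D1:**
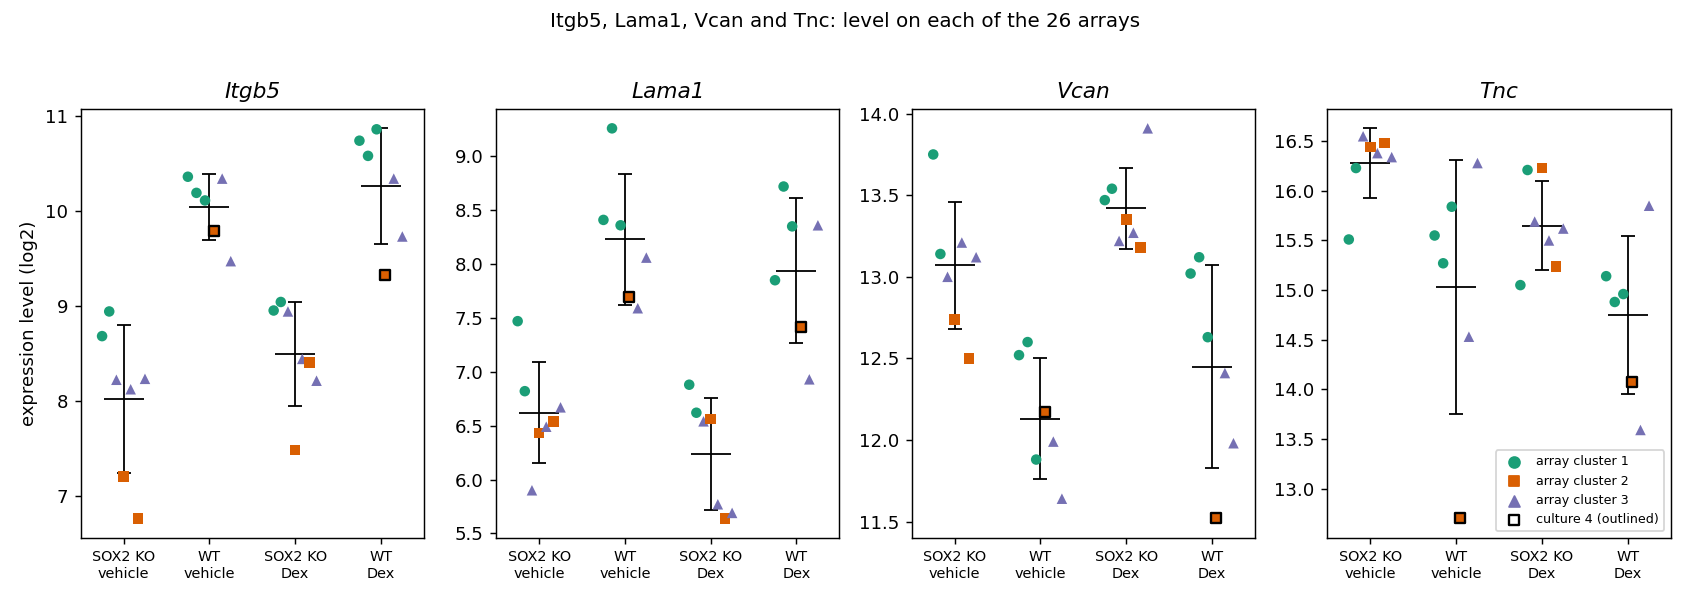
Level of Itgb5, Lama1, Vcan and Tnc on each array (log2 units, y axis) in SOX2 KO and WT cultures, in vehicle and in Dex. Each point is 1 array, coloured and shaped by array cluster, with culture 4 outlined, and lines with bars give the group mean and SD. The SOX2 KO points of Itgb5 and Lama1 all lie below the WT points of the same treatment, and those of Vcan lie above the WT points in Dex, by 0.06 log2 units at the nearest arrays.

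Vcan encodes versican, a large lectican that binds hyaluronan. With Dex it was 13.18, 13.35 and 13.91 log2 units in SOX2 KO arrays (lowest, median and highest of 7), against 11.52, 12.52 and 13.12 in WT arrays (of 6). No SOX2 KO array overlapped a WT array, as in 0.19% of all genes with SOX2 KO higher. The difference was 0.97 ± 0.24 log2 units (SE, 95% interval 0.49 to 1.46, adjusted p = 0.049999), just inside the threshold. The lowest WT Dex array was that of culture 4, and without culture 4 the difference was 0.79 ± 0.23 (adjusted p = 0.170) and no longer passed. Leaving out any of cultures 3 and 5 to 11, or culture 13, also ended the call, with adjusted p values of 0.0646 to 0.152.

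In vehicle Vcan differed by 0.93 ± 0.24 log2 units (SE, adjusted p = 0.0675) and did not pass. Its levels there were 12.50, 13.12 and 13.75 in SOX2 KO arrays and 11.64, 12.08 and 12.60 in WT arrays, and only the highest WT arrays and the lowest SOX2 KO array overlapped. In a fit with the array cluster as a covariate, the difference was 1.05 ± 0.18 in vehicle and 1.09 ± 0.18 in Dex (adjusted p = 0.00118 and 0.000835). That fit called 1.93% of all genes in vehicle and 2.04% in Dex. The clusters were found from these same arrays, which lowers the spread in that fit. Its p values are therefore no separate support for Vcan. Within the 3 clusters the Vcan difference was 1.11, 0.45 and 1.29 in vehicle and 0.58, 1.75 and 1.27 in Dex.

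Tnc encodes tenascin-C, a glycoprotein of the progenitor niche. It was 15.51, 16.38 and 16.55 log2 units in SOX2 KO vehicle arrays and 12.70, 15.41 and 16.28 in WT vehicle arrays. Culture 4 was the lowest WT array. Cultures 1, 3 and 6, at 15.55, 15.84 and 16.28, lay within the range of the SOX2 KO levels. The difference of 1.25 ± 0.39 log2 units (SE, adjusted p = 0.237) did not pass, and without culture 4 it was 0.78 ± 0.31. Within the clusters it was 0.32, 3.76 and 1.02, where culture 4 is the only WT culture of the middle value. In Dex it was 0.90 ± 0.39, with SOX2 KO arrays at 15.05, 15.62 and 16.23 and WT arrays at 13.59, 14.92 and 15.85, and it was 0.76 ± 0.31 without culture 4.

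Among the other 40 genes none passed in either treatment. The other laminins lay close to 0, since the chains Lama2, Lama4, Lama5, Lamb1, Lamb2 and Lamc1 differed by -0.41 to 0.40 log2 units in vehicle. Of the basement membrane genes Col4a1, Col4a2, Col4a5, Col4a6, Nid1 and Hspg2, only Hspg2 was above 0 in vehicle, and the largest difference was -0.65 ± 0.33 for Nid1, the nidogen that links laminin to type IV collagen (SE, adjusted p = 1), or -0.62 ± 0.36 without culture 4. Of the 6 fibrillar and beaded collagens, the largest was 0.68 ± 0.35 for Col11a1, a minor fibrillar collagen chain. With Dex Col11a1 was 8.64, 9.36 and 10.17 in SOX2 KO arrays and 7.35, 8.85 and 9.56 in WT arrays, a difference of 0.85 ± 0.35 (adjusted p = 0.503). Among the alternatives tried, Col11a1 passed in Dex only in the fit with the array cluster as a covariate, at 0.97 ± 0.23 (adjusted p = 0.0224), and not in that fit without culture 4, at 0.97 ± 0.26 (adjusted p = 0.0796). Those clusters came from these same arrays, so that call is no separate support. Of the other integrins and dystroglycan, the differences in vehicle ran from -0.31 for Itgb8 to 0.51 for Itga5, the fibronectin receptor chain. The proteases Mmp2 and Mmp14 and the inhibitors Timp1 and Timp3 differed by -0.10 to 0.34 in vehicle and by -0.46 to -0.13 in Dex. Their signs were not stable, since Mmp14 in Dex was at -0.13 ± 0.57 and at 0.22 ± 0.54 without culture 12, and Timp1 in vehicle was at 0.13 ± 0.54 and at -0.17 ± 0.54 without culture 4.

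**Figure D2:**
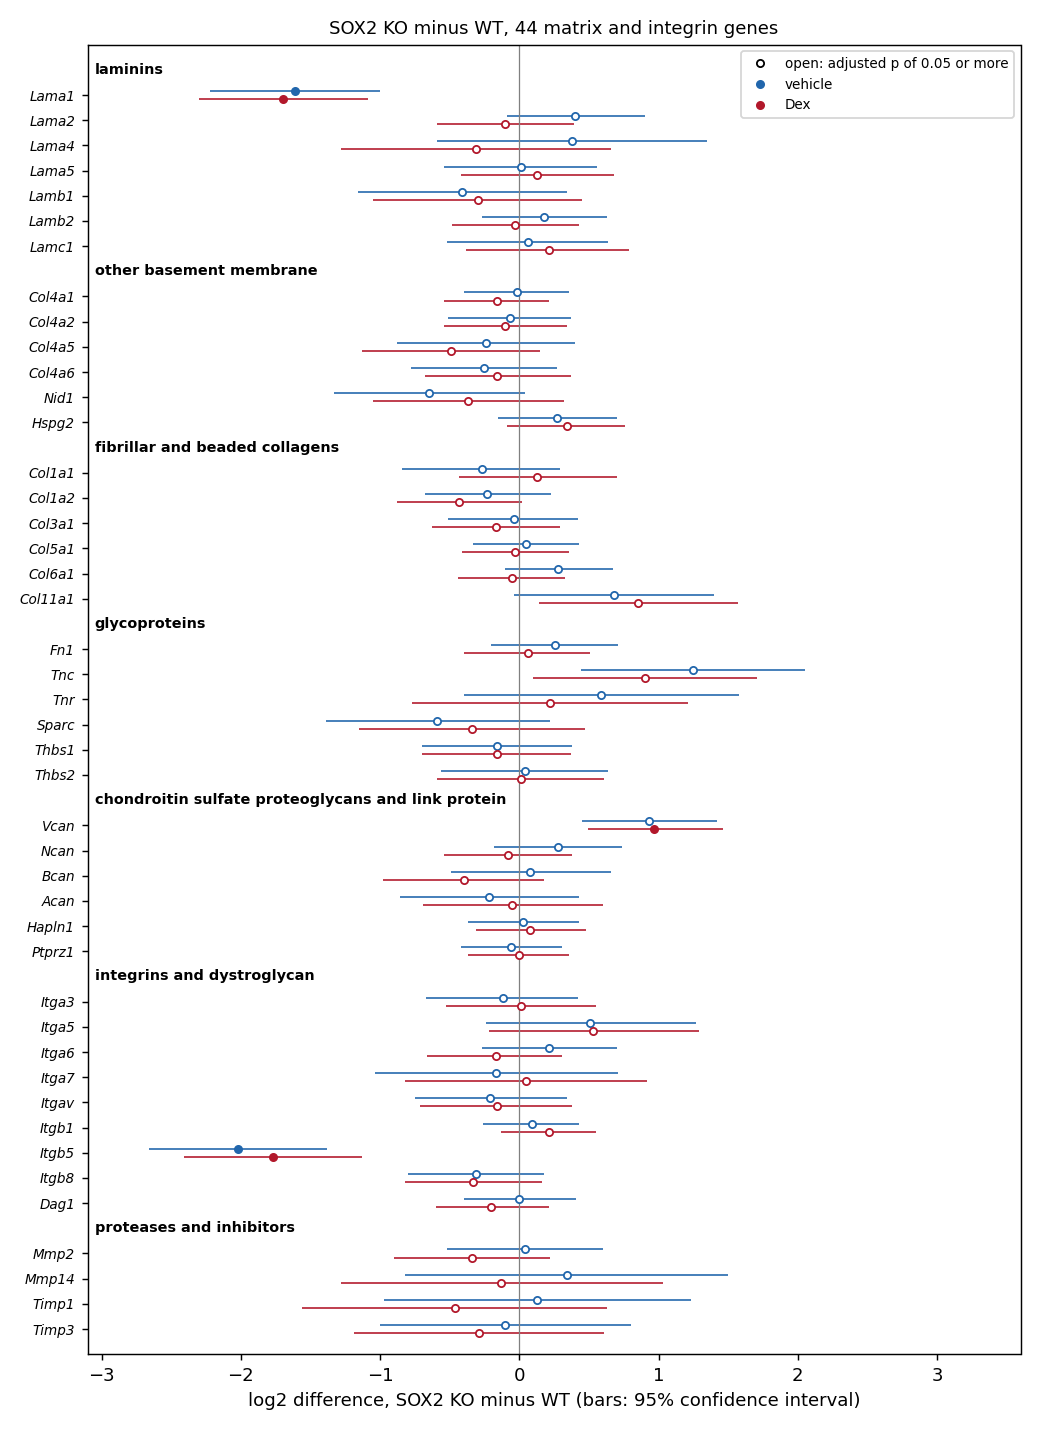
Difference between SOX2 KO and WT cells for the 44 genes, ordered by role (x axis, log2 units, bars give 95% confidence intervals), in vehicle (blue) and in Dex (red). Filled points passed an adjusted p of 0.05 and are those of Itgb5, Lama1 and, in Dex, Vcan, with the intervals of most other genes crossing 0.

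The RefSeq promoter windows of Itgb5 and Vcan, of the 3 called genes, are shown because the comparison removes a transcription factor and adds a receptor ligand. Each runs from 250 bases before to 50 bases from the gene's start on the reference build GRCm38.p6, and capitals mark the bases from the start on. The window of Itgb5 lies at chr16:33829415-33829714 on the plus strand and that of Vcan at chr13:89742463-89742762 on the minus strand.
Itgb5: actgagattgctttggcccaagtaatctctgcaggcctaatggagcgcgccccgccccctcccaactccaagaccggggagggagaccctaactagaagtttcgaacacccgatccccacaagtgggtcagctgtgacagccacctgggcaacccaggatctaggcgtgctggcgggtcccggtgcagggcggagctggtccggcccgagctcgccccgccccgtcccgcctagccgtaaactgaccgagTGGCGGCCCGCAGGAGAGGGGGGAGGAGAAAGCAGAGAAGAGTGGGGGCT
Vcan: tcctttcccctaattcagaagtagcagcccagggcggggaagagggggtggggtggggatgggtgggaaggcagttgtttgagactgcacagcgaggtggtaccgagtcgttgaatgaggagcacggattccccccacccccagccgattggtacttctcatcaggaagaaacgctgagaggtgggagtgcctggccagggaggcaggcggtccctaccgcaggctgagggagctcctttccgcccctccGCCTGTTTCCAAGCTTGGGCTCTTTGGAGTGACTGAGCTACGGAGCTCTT
Neither window held the SOX core letters CATTGT or CTTTGT, or the glucocorticoid response letters GNACANNNTGTNC, searched on both strands. Of the 38 windows found for 35 of the listed genes, CATTGT was in 0 (12.6% of all 32851 windows), CTTTGT in 5, of Col3a1, Itga3, Itgb1, Timp1 and Tnr (18.7% of all windows), and the glucocorticoid letters in 0 (0.475% of all windows). These letters describe the windows only.

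In WT cells Dex called none of the 44 genes, and none of all 19505 genes, with 755 at an unadjusted p under 0.05. Without culture 4, 0.169% of all genes were called, 31 higher and 2 lower, and again none of the 44. The median of the 44 genes was -0.05 log2 units against 0.00 for all genes, with 28 below 0 (49% of all genes), and 30 without culture 4. The smallest p was that of Lama2, the laminin alpha 2 chain, at 0.37 ± 0.17 (SE, unadjusted p = 0.0441, adjusted p = 0.998). Without culture 4 it was 0.30 ± 0.19, with an unadjusted p of 0.128. Sparc, Itga3 and Hspg2 were lower in 6 of 6 WT cultures, as were 2.11% of all genes, with mean differences of -0.30, -0.24 and -0.26. None of the 3 was lower in all SOX2 KO cultures. The 6 WT cultures include culture 4, and some drops were very small. Sparc in culture 6 was at 11.86 with vehicle and 11.85 with Dex, and Hspg2 in culture 5 at 6.20 and 6.16. Without culture 4, these 3 genes and Tnc were lower in every remaining WT culture, as were 4.96% of all genes.

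Culture 4 lay opposite to the other WT cultures for Tnc and Vcan. Tnc differed by -0.94, -0.88, -0.43, -0.41 and -0.39 log2 units between Dex and vehicle in cultures 5, 3, 6, 1 and 2, and by 1.37 in culture 4. Vcan differed by 0.34 to 0.75 in the same 5 cultures and by -0.65 in culture 4. Without culture 4 the mean was -0.61 ± 0.18 for Tnc (SE, adjusted p = 0.509) and 0.51 ± 0.16 for Vcan (adjusted p = 0.695). Neither passed, and with all 6 cultures the means were -0.28 ± 0.24 and 0.31 ± 0.18.

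In SOX2 KO cells Dex called 14 of all genes, all higher (0.0718%), and none of the 44. The number called was 49 without culture 4, which enters through the shared spread, and 3 without culture 13, again with none of the 44. Of the 44 genes 33 were below 0 (54.5% of all genes), with a median of -0.10 log2 units against -0.02. Among all genes at or above the lower quartile of level, the median was -0.06. More of the 44 were higher than lower in cultures 8 (23 and 20) and 10 (25 and 18), and more were lower in the other cultures. In culture 7, 65.9% of all genes were lower. At an unadjusted p under 0.05, 10 of the 44 genes were lower and 2 higher, against 6.47% and 3.7% of all genes. Their adjusted p values were 0.316 to 0.478, so none of these differences passed.

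Tnc, Fn1 and Mmp14 were lower with Dex in all 7 SOX2 KO cultures, as were 1.49% of all genes. Tnc was lower by 0.02 to 1.24 log2 units, with a mean of -0.63 ± 0.22 (SE, adjusted p = 0.385). Its Dex arrays lay at 15.05 to 16.23 and its vehicle arrays at 15.51 to 16.55, so the levels overlapped. Fn1, which encodes fibronectin, was lower by 0.06 to 0.67, with a mean of -0.35 ± 0.13 (adjusted p = 0.395). Mmp14, which encodes a membrane-bound metalloproteinase, was lower by 0.05 to 1.55, with a mean of -0.51 ± 0.17 (adjusted p = 0.365).

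Lama4, the laminin alpha 4 chain, had the smallest p of the 44, at -0.60 ± 0.18 log2 units (SE, adjusted p = 0.316). Culture 12 had the largest change, -1.79, and the other 6 lay between -1.08 and 0.00. Timp1, an inhibitor of metalloproteinases, was at -0.63 ± 0.20, with -1.82 and -1.40 in cultures 11 and 10 and 0.27 in culture 12. The lecticans Ncan and Bcan, which encode neurocan and brevican, were at -0.47 ± 0.16 and -0.57 ± 0.20, with the lowest value of both in culture 12 (-1.12 and -1.96). Itga6, a laminin-binding integrin chain, was at -0.42 ± 0.15, Tnr at -0.47 ± 0.21 and Dag1, which encodes dystroglycan, at -0.27 ± 0.12.

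The Dex array of culture 12 had the lowest weight of all 26 arrays, 0.132, when arrays were weighted by their fit. Without culture 12, 8 of the 10 genes stayed at an unadjusted p under 0.05 (18.2% of the 44 against 5.42% of all genes), and Tnr and Dag1 did not. The share of the 44 genes below 0 was then 65.9%, against 59.6% of all genes. Without culture 12, Lama4 was at -0.41 ± 0.14, Mmp14 at -0.33 ± 0.14 and Bcan at -0.34 ± 0.15. Itga6 was then at -0.28 ± 0.12, Dag1 at -0.18 ± 0.11 and Timp1 at -0.78 ± 0.19. Itgb5 and Vcan were the 2 genes at an unadjusted p under 0.05 as higher, at 0.47 ± 0.18 and 0.35 ± 0.16. Without culture 12 they were at 0.28 ± 0.14 and 0.30 ± 0.17, and neither stayed under it (unadjusted p = 0.0677 and 0.0914).

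**Figure D3:**
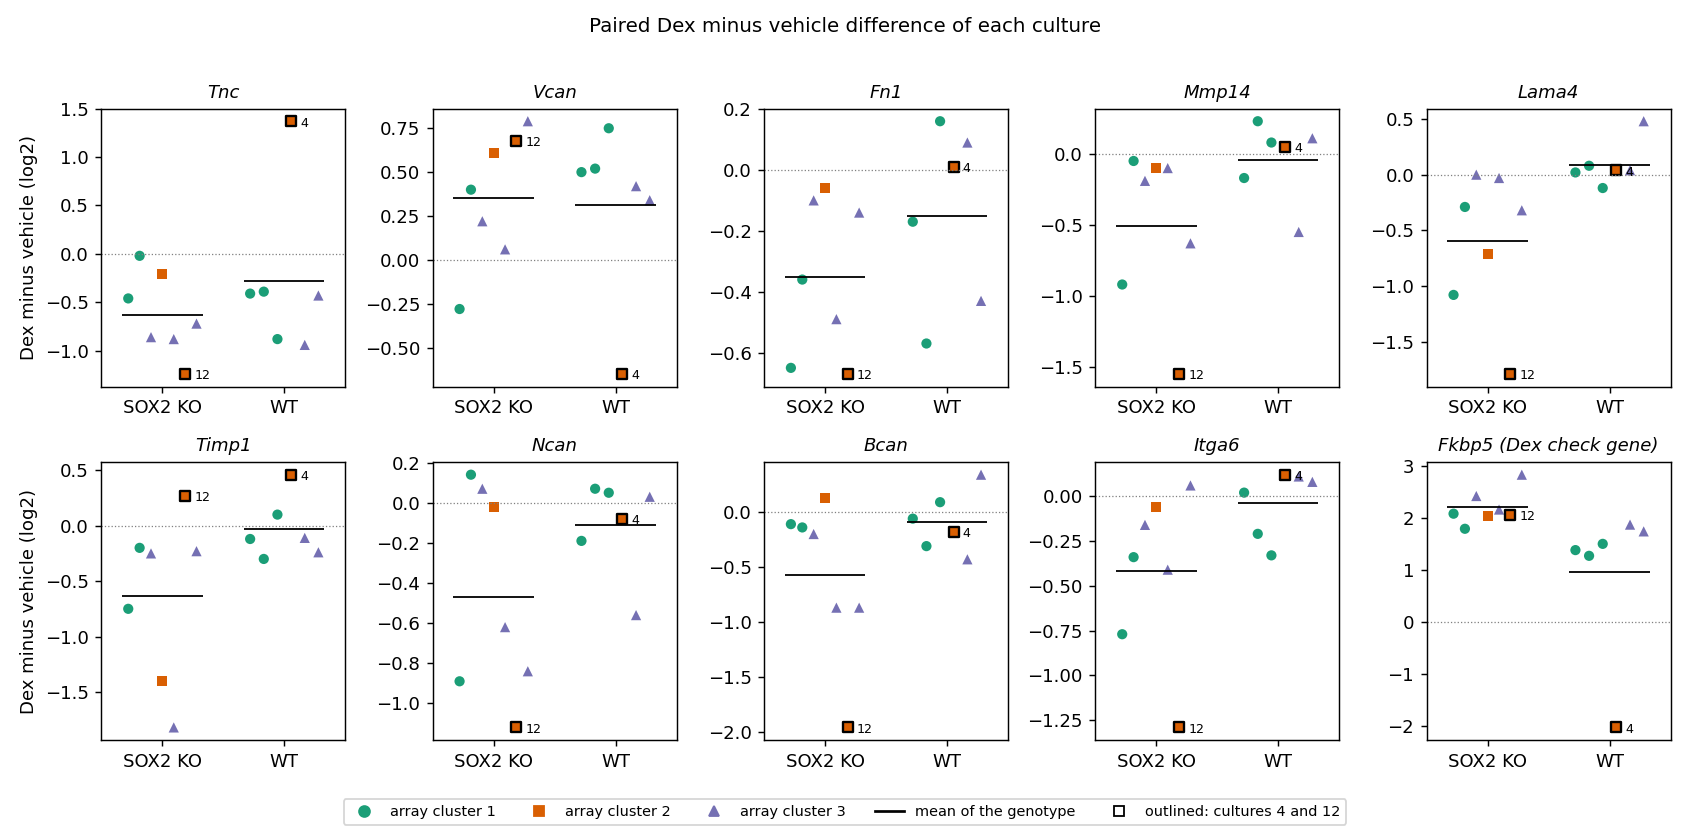
Difference between the Dex and the vehicle array of each culture (y axis, log2 units) for 9 genes of the list and for Fkbp5, in SOX2 KO (left) and WT cultures (right). Each point is 1 culture, marked by array cluster, with cultures 4 and 12 outlined and numbered, and the line is the genotype's mean. For Tnc the 7 SOX2 KO and 5 of 6 WT cultures lie below 0, with culture 4 at 1.37, and Fkbp5 is at -2.03 in culture 4 and at 1.27 or above in the other 12.

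The difference between the Dex effects of SOX2 KO and WT cells was tested directly, and called none of the 44 genes and none of all genes, with 688 at an unadjusted p under 0.05. The smallest p of the list was that of Lama4, at -0.69 ± 0.26 log2 units (SE, adjusted p = 0.999), followed by Lama2 at -0.50 ± 0.23. The others of smallest p were Timp1 at -0.59 ± 0.29, Mmp14 at -0.46 ± 0.25, Itga6 at -0.39 ± 0.22 and Col1a1 at 0.40 ± 0.23. For Tnc the difference was -0.35 ± 0.32, with an interval of -1.02 to 0.33, and without culture 4 it was -0.02 ± 0.23 (interval -0.50 to 0.47). Without culture 4, Lama4 was at -0.70 ± 0.28 and Lama2 at -0.43 ± 0.25, and Lama2 was no longer at an unadjusted p under 0.05 (0.0465 with all cultures and 0.1 without). Without culture 12, Mmp14 was at -0.29 ± 0.19, Itga6 at -0.24 ± 0.17 and Col1a1 at 0.26 ± 0.20, and without culture 11 Timp1 was at -0.39.

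The SD between cultures of 1 genotype, over each culture's mean of both arrays, had a median of 0.44 log2 units over the 44 genes and of 0.38 over all genes. It was largest for Mmp14 (1.13), Timp1 (1.05), Lama4 (0.92) and Tnr (0.92), and smallest for Col5a1 (0.19) and Itgb1 (0.20), the shared beta chain of many integrins. Mmp14 had its highest culture mean in culture 3 (11.48) and its lowest in culture 6 (7.96), both WT. Sparc, a collagen-binding matricellular gene, and Mmp14 were higher in every culture of the cluster of cultures 1, 2, 3, 7 and 8 than in every other culture, as were 10.8% of all genes. The upper quartile of all values was also higher on the arrays of that cluster. It was 10.09 to 10.43 log2 units there and 9.38 to 9.79 on the other arrays. The part of this array-wide difference in the cluster differences was not tested. In the cluster of cultures 5, 6, 9, 11 and 13, Col4a5, Thbs2, Itga3, Itgav and Mmp2 were lower than in every other culture, which is 11.4% of the 44 genes and 5.68% of all genes. In the cluster of cultures 4, 10 and 12, Col4a1, Col6a1 and Thbs1 were higher than in every other culture, 6.82% of the 44 genes and 7.29% of all genes. Markers of other cell types moved with the clusters. The mural list averaged 5.73 to 6.56 log2 units in cultures 1, 2, 3, 7 and 8 and at most 5.66 in the others, and the endothelial list 5.14 to 5.32 and at most 5.10. The fibroblast list averaged 5.50 to 5.90 in cultures 4, 10 and 12 and at most 5.45 in the others. The oligodendrocyte and astrocyte lists differed more in mean, though their ranges overlapped between clusters. They averaged 9.57 and 11.44 in cultures 1, 2, 3, 7 and 8, and 8.14 and 10.43 in cultures 4, 10 and 12. In cultures 5, 6, 9, 11 and 13 they averaged 8.27 and 10.46. The part of these cell types in the cluster differences was not tested. The clusters were found from these arrays, so these counts are a description without a test.

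**Figure D4:**
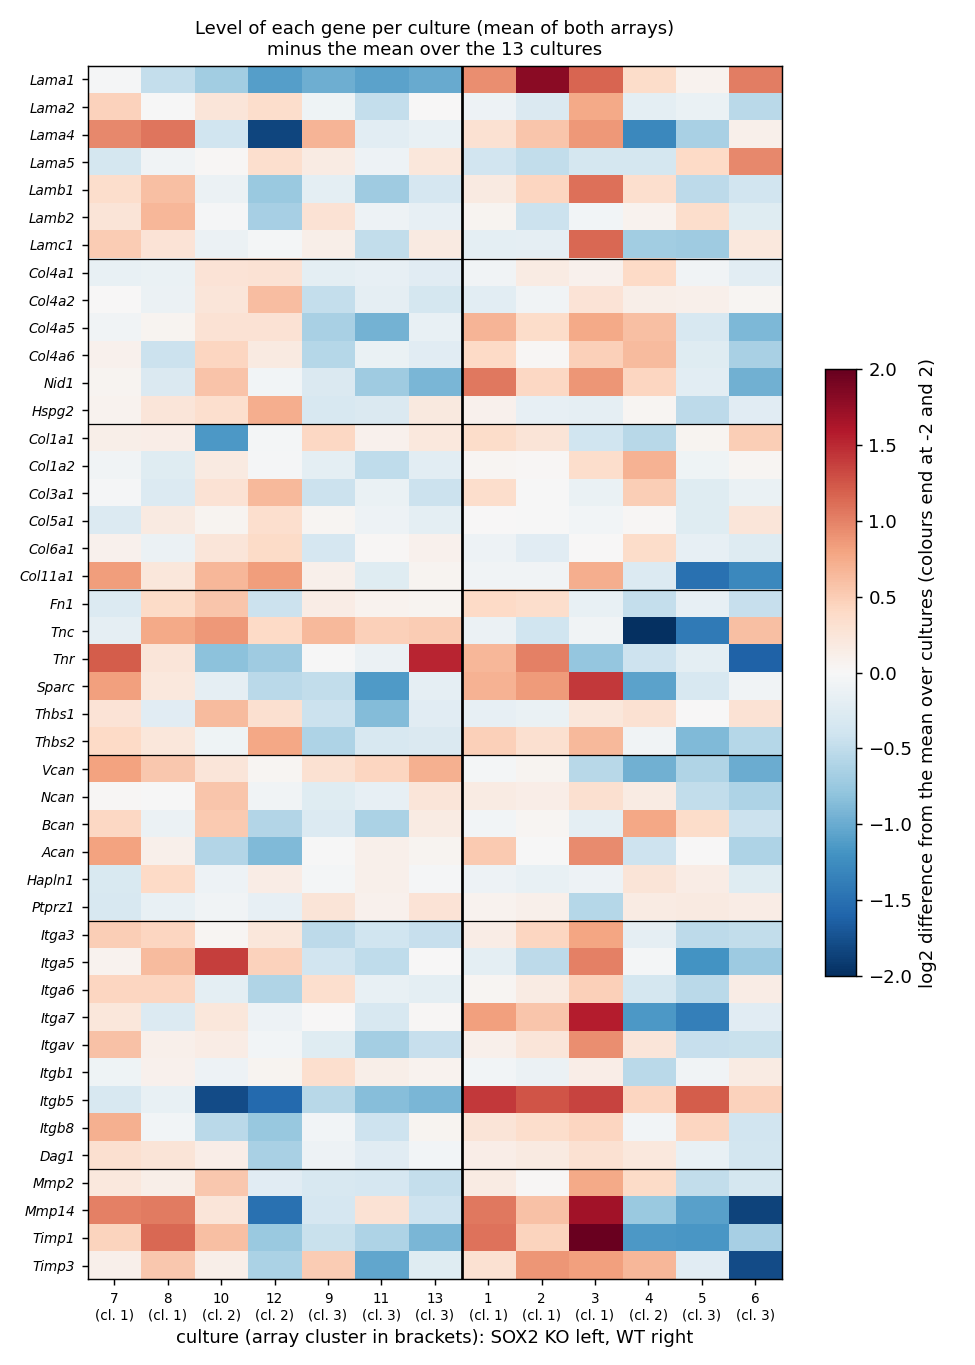
Level of each of the 44 genes in each culture, as the mean of its Dex and vehicle arrays minus the mean over the 13 cultures (colour, log2 units, ending at -2 and 2). Columns are cultures, SOX2 KO left of the line and WT right of it, ordered by array cluster, and rows are grouped by role. Itgb5 and Lama1 are blue in SOX2 KO and red in WT columns, apart from pale cells near 0, and Mmp14 is red in all columns of cluster 1.

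Of 108 other matrix and adhesion genes measured, 1 was higher and 1 lower in SOX2 KO than in WT cells in vehicle. Of all genes, 0.19% passed as higher and 0.369% as lower there. Svep1, which encodes a large extracellular adhesion protein, was higher by 1.83 ± 0.32 log2 units (SE, adjusted p = 0.00229), with levels of 8.80 to 9.63 in SOX2 KO arrays and 6.16 to 8.05 in WT arrays. Gpc4, a glypican that carries heparan sulfate, was lower by 1.44 ± 0.31 log2 units (adjusted p = 0.0145), with levels of 7.69 to 9.66 in SOX2 KO arrays and 9.23 to 10.82 in WT arrays that overlapped. Gpc4 no longer passed without culture 5 (adjusted p = 0.0587) or culture 10 (adjusted p = 0.0536), and with all cultures it did not pass in Dex. Within the 3 clusters Gpc4 differed by -0.45, -2.49 and -1.80 in vehicle and by -0.28, -1.74 and -1.31 in Dex. In Dex Svep1 was higher again, by 1.96 ± 0.32, where the SOX2 KO array of culture 11 (7.81) lay below the WT array of culture 4 (8.04) and the groups did not otherwise overlap. Without culture 4 the difference in Svep1 was 1.84 ± 0.32 in vehicle and 2.18 ± 0.32 in Dex. Without culture 4, Itga4, an integrin alpha chain, was also lower in Dex, by 0.98 ± 0.23 log2 units (adjusted p = 0.0468). Timp4, a metalloproteinase inhibitor, was the only one of the 108 called for Dex in SOX2 KO cells, where 0.0718% of all genes were called. It was at 0.71 ± 0.12 (adjusted p = 0.0292), higher in 7 of 7 cultures by 0.27 to 1.04, and 1.01% of all genes were higher in every culture. Timp4 missed the threshold when any of cultures 1, 2, 3, 6 to 11 or 13 was left out (adjusted p = 0.0505 to 0.14), and with only the groups compared (adjusted p = 0.175). In WT cells Timp4 was at 0.34 ± 0.13, with 5 of 6 cultures higher, and at 0.41 ± 0.14 without culture 4.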

How the data were processed

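Gene expression was measured on 26 1-colour arrays. The authors deposited values taken here as log2, since they run from 2.22 to 19.81. The log base and the authors' normalization are not given in the sources used here. Of 22206 transcript clusters, 19572 had 1 gene symbol and 2634 had none and were left out. For the 55 genes with several clusters the one of highest mean was used, which left 19505 genes.

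The values were used as deposited in limma 3.58.1 under R 4.3.3, and tables and figures were made in Python 3.11.15. SOX2 KO was compared with WT by a model with 1 mean for each of 4 groups over all 26 arrays. Dex was compared with vehicle by a model with the culture as a block. P-values were adjusted by Benjamini-Hochberg over all genes, with a threshold of 0.05. The genes and the other lists were chosen with earlier results of these data known. A gene was described in full when it passed in a comparison, with or without culture 4, or had 1 of the 6 smallest p values of the list in it. Genes outside the list were named where they passed.

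The pairing comes from the labels, since cultures from each animal were kept separate. After group means were removed, the Dex and vehicle arrays of a culture correlated at 0.312 to 0.731, and 22 of 26 arrays matched their own number best. The scripts were tested on simulated data. Alternatives covered normalization, a filter on low values, array weights, the array clusters, the block and leaving out each culture. For arrays, their number limits the precision.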

Additional observations from a re-analysis of the deposited data

Results flagged for a closer look

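Among 132 groups of values checked for 1 value far from the rest, 13 were found, and chance alone gives about 1 in 20. Culture 4 stood apart from the other WT cultures in the Dex minus vehicle difference of Tnc (1.37 log2 units, others -0.94 to -0.39) and of Vcan (-0.65, others 0.34 to 0.75). Culture 3 stood apart in WT for the Dex minus vehicle difference of Col1a2 (-1.16, others 0.12 to 0.83) and of Itga3 (-0.56, others -0.27 to -0.10), and for the vehicle level of Lama2 (5.88, others 4.52 to 4.71). Culture 6 stood apart in WT for the Dex minus vehicle difference of Lama4 (0.48, others -0.12 to 0.08) and of Nid1 (-0.73, others -0.18 to 0.06).

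In SOX2 KO, culture 12 stood apart for the Dex level of Itga6 (12.72, others 13.61 to 14.23) and the Dex minus vehicle difference of Col1a2 (-1.19, others -0.19 to 0.31). Culture 7 stood apart for the vehicle levels of Tnc (15.51, others 16.23 to 16.55) and Svep1 (9.63, others 8.80 to 9.03). Culture 10 stood apart for the Dex level of Col1a1 (5.96, others 6.72 to 7.21), and culture 11 for the vehicle level of Lama2 (4.31, others 5.25 to 5.59).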

How the results depend on the processing

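Itgb5 and Lama1 stayed called as lower in SOX2 KO in both treatments under all 25 alternatives, at -2.17 to -1.53 and -1.92 to -1.40 log2 units. The genes followed through every alternative kept their direction, each in the comparison where it was among those of smallest p or passed. Others changed sign near 0, among them Mmp14 in Dex (-0.13, and 0.22 without culture 12), and without culture 4 Timp1 (0.13, and -0.17) and Lama5 (0.01, and -0.06) in vehicle. In Dex without culture 4, Fn1, Thbs2, Itga3 and Itga7 went from above to below 0, and Lamb2, Col6a1 and Ptprz1 from below to above 0. Vcan in vehicle passed with quantile normalization (1.01), median centring (0.97), array weights (0.80), the array cluster as a covariate (1.05), and without culture 2 (1.03) or 12 (1.03). In Dex it did not pass with array weights (0.66), with only the 2 groups compared (0.97) or without culture 4 (0.79). The number of the 44 genes called was 2 to 3 in vehicle and 2 to 4 in Dex, and 0 throughout for Dex in each genotype and for the difference of Dex effects. The median of the 44 genes ranged from -0.11 to 0.07 log2 units in vehicle, -0.19 to 0.01 in Dex, -0.09 to -0.01 for Dex in WT, -0.14 to -0.05 for Dex in SOX2 KO and -0.08 to 0.02 for the difference of Dex effects. Gpc4 in vehicle was lost with array weights (adjusted p = 0.0644) and without culture 5 (0.0587) or 10 (0.0536). The number of all genes called moved by over 1.5 times. In vehicle it was 169 with quantile normalization, 378 with array weights and 376 with the array cluster, against 109, and 75 to 143 with 1 culture left out. In Dex it was 171, 561 and 397, and 72 with only the groups compared, against 110, and 69 to 160 with 1 culture left out. For Dex in WT it was 97 with array weights and 33 without culture 4, against 0. For Dex in SOX2 KO it was 69 with array weights, 43 with the array cluster, 49 without culture 4 and 31 with only the groups compared, against 14, and as low as 3 without culture 13. The array cluster gave 4 for the difference of Dex effects. The array clusters were found from these same arrays, so calls in the fits that use them are no separate support. With no replicate block, Dex in SOX2 KO called 10 genes and Timp4 no longer passed (adjusted p = 0.999), and a random replicate block changed no call of the 44 genes between genotypes with all cultures in. Without culture 4, fits with a random replicate block called Vcan in vehicle (0.94). Timp4 also missed the threshold with only the groups compared (0.175) and without 10 of the 13 cultures, each in turn. The fits that join leaving out culture 4 with a block setting or the array cluster, and those without cultures 4 and 12 together, were chosen after seeing the data. The cause was not tested.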
